A study of Homo sapiens with 8 samples.

Results

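The genes described here are the 2 cyclin L genes and 7 kinase genes that act on splicing factors: CCNL1, CCNL2, CLK1, CLK2, CLK3, CLK4, SRPK1, SRPK2 and DYRK1A. They were picked by gene symbol as a functional group, with earlier results of these data known. They are 9 of the 55737 genes in the deposited table, and all 9 were among the 19393 genes with enough reads to test. RNA was sequenced from LNCaP cells, a human prostate cancer line grown from a lymph node metastasis, harvested after 4 hours of treatment. The 4 groups, each of 2 libraries, received 0.5 μM AT7519 together with 40 μM OSMI-2 (the combination), 0.5 μM AT7519 alone, 40 μM OSMI-2 alone, or a control whose content the labels do not give. AT7519 is a small-molecule inhibitor of cyclin-dependent kinases (CDKs) that acts on CDK9, which releases paused RNA polymerase II, and on others. OSMI-2 inhibits O-GlcNAc transferase (OGT), which attaches a single sugar to nuclear and cytosolic proteins. These doses come from the series design; the treatment protocol in the labels writes mM with equal numbers. All groups are 1 cell line, and nothing in the labels says that the libraries of a group came from separate cultures, so each p-value reflects variation among the 8 libraries alone, and this variation may be technical.

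Cyclin L proteins bind CDK11 and sit with splicing factors in nuclear speckles. Kinases of the CLK and SRPK families phosphorylate the arginine-serine repeats of SR proteins, a family of RNA-binding splicing regulators; SRPKs do so mainly in the cytoplasm, which lets SR proteins enter the nucleus, and CLKs in the nucleus, which releases SR proteins from speckles. DYRK1A is a related dual-specificity kinase, encoded on chromosome 21, that also phosphorylates splicing factors. Messages of the CLK genes are known to be held back in the nucleus in part with unspliced introns, and gene-level counts do not tell these forms apart.

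Start-site windows of the cyclin L genes and of CLK1 and CLK4 are shown because these genes are among those with higher levels after AT7519 and their windows hold the same short motif. Each window is 300 bases from RefSeq (GRCh38.p14), 250 before and 50 after the annotated start, written 5′ to 3′ on the strand of the gene, here the minus strand in every case. Capitals mark TGACG, or CGTCA where it lies on the other strand, and in CCNL1 the full TGACGTCA, which contains TGACG once on each strand. The windows lie at chr3:157160098-157160397 (CCNL1), chr1:1399286-1399585 (CCNL2), chr2:200864609-200864908 (CLK1, the first of its 2 annotated starts) and chr5:178627001-178627300 (CLK4).
CCNL1: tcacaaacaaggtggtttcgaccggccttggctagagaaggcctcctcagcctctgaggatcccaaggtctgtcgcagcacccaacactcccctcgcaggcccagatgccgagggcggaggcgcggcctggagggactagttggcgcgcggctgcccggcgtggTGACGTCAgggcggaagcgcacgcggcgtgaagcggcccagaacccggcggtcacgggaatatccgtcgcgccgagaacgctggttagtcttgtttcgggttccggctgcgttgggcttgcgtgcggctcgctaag
CCNL2: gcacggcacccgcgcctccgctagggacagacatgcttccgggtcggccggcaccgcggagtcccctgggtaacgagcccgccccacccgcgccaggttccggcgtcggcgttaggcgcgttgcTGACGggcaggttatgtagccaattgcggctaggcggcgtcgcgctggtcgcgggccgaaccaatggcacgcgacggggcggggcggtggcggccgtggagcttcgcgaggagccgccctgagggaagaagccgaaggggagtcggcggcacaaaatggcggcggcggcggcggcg
CLK1: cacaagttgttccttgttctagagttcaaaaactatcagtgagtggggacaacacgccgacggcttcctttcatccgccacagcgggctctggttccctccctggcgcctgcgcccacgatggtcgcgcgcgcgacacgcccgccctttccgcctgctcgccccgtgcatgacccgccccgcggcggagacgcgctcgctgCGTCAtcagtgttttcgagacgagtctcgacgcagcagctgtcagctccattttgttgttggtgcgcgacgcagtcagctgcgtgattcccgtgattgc
CLK4: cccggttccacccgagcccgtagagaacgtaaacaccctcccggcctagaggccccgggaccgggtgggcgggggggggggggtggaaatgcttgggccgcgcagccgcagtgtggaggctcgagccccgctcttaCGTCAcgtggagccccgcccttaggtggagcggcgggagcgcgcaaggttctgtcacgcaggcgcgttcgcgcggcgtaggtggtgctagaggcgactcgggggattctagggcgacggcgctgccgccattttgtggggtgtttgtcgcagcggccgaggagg

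All 9 genes had an entry in this table. The full motif TGACGTCA, the binding sequence of CREB-family factors, began 86 bases before the CCNL1 start, and 1.85% of the 35116 windows in the table held it. TGACG, searched on both strands and counted wherever it also formed part of the longer motif, lay in 24.6% of the windows. Besides the windows printed above, TGACG stood in the second of 2 windows of CLK1, which overlaps the printed one and holds the same site. It also stood in the second of 2 windows of CLK3, the fourth of 4 of SRPK2 and the third of 6 of DYRK1A. The single windows of CLK2 and SRPK1 did not hold it. The GC box GGGCGG, found in 45% of all windows on either strand, stood in all 4 printed windows. CCAAT, found in 34.6%, stood among them in that of CCNL2, and TATAAA, found in 11.5%, in none of them. A match is a description of these letters and shows no binding.

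The 8 libraries held between 60152710 and 154367238 reads assigned to genes, and 1424 to 42143 reads lay behind a single value of the 9 genes, far above the floor of 3 reads. Levels are normalised read counts, that is, reads divided by a factor per library, and ± marks the SD of 2 libraries. The first principal component of all tested genes held 66.2% of the variance and separated the libraries with AT7519 from those without it. The 13 mitochondrial mRNAs took 6.57% to 7.73% of reads with AT7519 and 4.45% to 5.53% without it, so the choice of scale matters for the changes with AT7519. KLK3, which encodes prostate-specific antigen and marks luminal prostate cells, had 118885 and 156727 normalised counts in the combination, 104020 and 104104 with AT7519, 103345 and 127264 with OSMI-2, and 93639 and 98725 in control. The luminal genes KLK2, TMPRSS2, FOLH1, HOXB13, KRT8 and KRT18 were also present in every library, and they did not all lie on the same side of control. KRT8 averaged 44740 ± 4044 in the combination, 49856 ± 257 with AT7519, 31175 ± 1638 with OSMI-2 and 32635 ± 1065 in control. HOXB13 averaged 24238 ± 2489 in the combination, 25200 ± 1429 with AT7519, 29287 ± 1634 with OSMI-2 and 32499 ± 2000 in control. TMPRSS2 (15738 ± 79.98) and KRT18 (22607 ± 2524) in the combination also had lower means than in control (19003 ± 2346 and 26697 ± 1487). KLK2 (32531 ± 4760) and FOLH1 (156510 ± 6566) in the combination had higher means than in control (18669 ± 3070 and 120183 ± 3872). The sum of 8 basal, fibroblast and blood cell markers was 3241 and 3904 in the combination, 2644 and 3204 with AT7519, 1960 and 2694 with OSMI-2, and 2141 and 2066 in control. Nearly all of that sum was COL1A1, with KRT5, TP63, COL1A2, PTPRC and CD3E at 0 to 5 reads in each library. The part of these shifts in the results was not tested, and in bulk RNA fewer cells of a kind and less RNA per cell cannot be told apart.

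The effect of CDK inhibition was read in 2 comparisons that share no library: AT7519 against control, and the combination against OSMI-2. Both use 1 estimate of spread pooled over all 8 libraries, so their p-values are not independent. Changes are log2 differences of normalised counts plus 1 from a limma fit over all tested genes, with Benjamini-Hochberg adjusted p-values, and a gene was called at an adjusted p below 0.05. With AT7519 against control, 6 of the 9 genes rose (CCNL1, CCNL2, CLK1, CLK3, CLK4 and DYRK1A), 1 fell (SRPK2), and CLK2 and SRPK1 were not called. In that comparison 53.2% of all tested genes were called, 26% of all tested genes being higher and 27.2% lower. The median change was 0.56 over the 9 genes and -0.0042 over all tested genes. In the combination against OSMI-2, 4 of the 9 rose (CCNL1, CCNL2, CLK1 and CLK3) and 1 fell (SRPK2), beside 54.8% of all tested genes called, 27.5% higher and 27.3% lower. The median change there was 0.22 over the 9 genes and 0.036 over all tested genes. Because the 9 genes were chosen with earlier results known, these differences from all tested genes are a description and no test of the group.

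**Figure D1:**
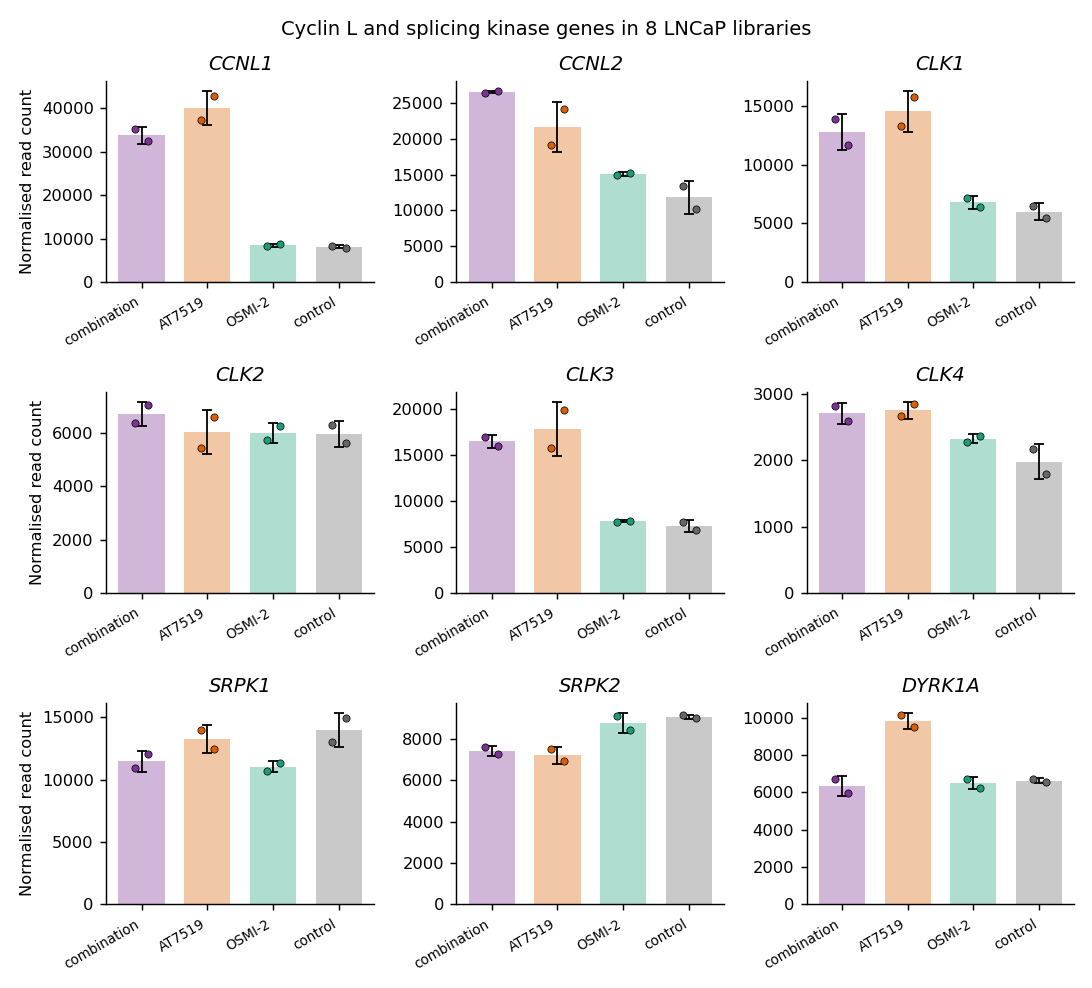
Normalised read count of each of the 9 genes in the 8 libraries: points are libraries, bars are group means from 0, and error bars are SDs of 2 libraries. CCNL1 stands at 32363 or more in all 4 libraries with AT7519 and at 8732 or less in the 4 without it, while DYRK1A stands at 9502 or more in the 2 libraries with AT7519 alone and at 6738 or less in the rest.

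CCNL1 encodes cyclin L1 and had the largest change of the 9 genes. Its level was 35125 and 32363 normalised counts in the combination, 37216 and 42853 with AT7519, 8238 and 8732 with OSMI-2, and 8370 and 7854 in control. The 4 libraries with AT7519 lay far above the other 4, and the 2 groups without AT7519 overlapped. CCNL1 rose 4.92-fold with AT7519 against control (log2 change 2.30, SE 0.085, limma adjusted p = 9.69e-10), a change larger than that of 98.6% of tested genes. It rose 3.98-fold in the combination against OSMI-2 (1.99, SE 0.085, adjusted p = 2.12e-09), and 4.16-fold in the combination against control (2.06, adjusted p = 2.09e-09). Each of these calls held without any single library and on every other scale tried.

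CCNL2 encodes the paralogue cyclin L2, and it also was higher with AT7519, by a smaller factor. Its level was 26414 and 26679 in the combination, 19169 and 24121 with AT7519, 14899 and 15259 with OSMI-2, and 13462 and 10194 in control. Both groups with AT7519 lay above both groups without it, and OSMI-2 libraries lay above control libraries. The fold changes were 1.84 with AT7519 against control (log2 change 0.88, SE 0.12, adjusted p = 2.93e-05) and 1.76 in the combination against OSMI-2 (0.82, SE 0.12, adjusted p = 4.8e-05). Scaled to equal mitochondrial mRNAs, both changes were -0.04 and not called.

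The CCNL1 and CCNL2 values can be set against each other within a library, where the scale drops out. The ratio of CCNL1 to CCNL2 counts was 1.33 and 1.21 in the combination, 1.94 and 1.78 with AT7519, 0.553 and 0.572 with OSMI-2, and 0.622 and 0.770 in control. CCNL1 thus had more reads than CCNL2 in all 4 libraries with AT7519 and fewer in all 4 without it, as a description without a test. Per kilobase of merged exons, CCNL1 stood at 3866 ± 224 in the combination, 4586 ± 457 with AT7519, 972 ± 40.0 with OSMI-2 and 929 ± 41.8 in control. CCNL2 stood at 3875 ± 27.3, 3160 ± 511, 2201 ± 37.2 and 1727 ± 337 normalised counts per kilobase in the combination, AT7519, OSMI-2 and control groups.

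Of the CLK kinases, CLK1 and CLK3 more than doubled with AT7519 alone, CLK4 rose less, and CLK2 was not called in any comparison. CLK1 had 13873 and 11721 normalised counts in the combination, 13314 and 15809 with AT7519, 7184 and 6422 with OSMI-2, and 6502 and 5472 in control. CLK3 had 17019 and 15986 in the combination, 15788 and 19951 with AT7519, 7778 and 7889 with OSMI-2, and 7760 and 6885 in control. For both genes every library with AT7519 lay above every library without it. CLK1 rose 2.43-fold with AT7519 against control (log2 change 1.28, SE 0.11, adjusted p = 6.28e-07) and 1.88-fold in the combination against OSMI-2 (0.91, adjusted p = 1.07e-05). CLK3 rose 2.43-fold (1.28, SE 0.10, adjusted p = 3.1e-07) and 2.11-fold (1.07, adjusted p = 9.59e-07) in the same 2 comparisons. Scaled to equal mitochondrial mRNAs, the rises in the combination against OSMI-2 were 0.06 for CLK1 and 0.22 for CLK3 and were not called. CLK3 exons overlap those of EDC3 on the other strand by 701 bases, so its reads are uncertain if counting ignored the strand, which the sources used here do not state.

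CLK4 had 2824 and 2597 normalised counts in the combination, 2667 and 2848 with AT7519, 2284 and 2375 with OSMI-2, and 2168 and 1793 in control. Its libraries with AT7519 lay above those without it by a narrow margin. CLK4 exons overlap RN7SKP70 by 161 bases on the same strand, and how reads there were assigned is not given. CLK4 rose 1.40-fold with AT7519 against control (log2 change 0.48, SE 0.11, adjusted p = 0.00185), and the combination against OSMI-2 gave 0.22 (adjusted p = 0.108). That second value passed in 3 of 20 alternatives, at 0.42 after quantile normalisation (adjusted p = 0.00558), 0.30 with equal upper quartiles (adjusted p = 0.0362) and -0.64 with equal mitochondrial mRNAs (adjusted p = 4.62e-05). CLK4 was not called in the interaction (-0.27, adjusted p = 0.66). Scaled to equal totals, the AT7519 change of CLK4 was 0.14 and not called, and scaled to equal mitochondrial mRNAs it was -0.43. Its rise in the combination against control (0.46, adjusted p = 0.00263) was lost without control replicate 2 (0.32, adjusted p = 0.0528) and with equal totals (0.20, adjusted p = 0.159).

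CLK2 had 6386 and 7039 normalised counts in the combination, 5459 and 6614 with AT7519, 5736 and 6264 with OSMI-2, and 6299 and 5612 in control. All 4 groups lay close together. The change was 0.02 with AT7519 against control (adjusted p = 0.917) and 0.16 in the combination against OSMI-2 (adjusted p = 0.21). Read within libraries, the ratio of CLK1 to CLK2 was 2.17 and 1.67 in the combination, 2.44 and 2.39 with AT7519, 1.25 and 1.03 with OSMI-2, and 1.03 and 0.975 in control. The ratio of CLK2 to CLK3 was 0.375 and 0.440 in the combination, 0.346 and 0.332 with AT7519, 0.737 and 0.794 with OSMI-2, and 0.812 and 0.815 in control. The ratio of CLK1 to CLK4 was 4.91 and 4.51 in the combination, 4.99 and 5.55 with AT7519, 3.14 and 2.70 with OSMI-2, and 2.999 and 3.052 in control. The makeup of the CLK messages therefore differed between libraries with and without AT7519 whatever the scale, with more CLK1 and CLK3 per CLK2 and more CLK1 per CLK4 where AT7519 was given.

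**Figure D2:**
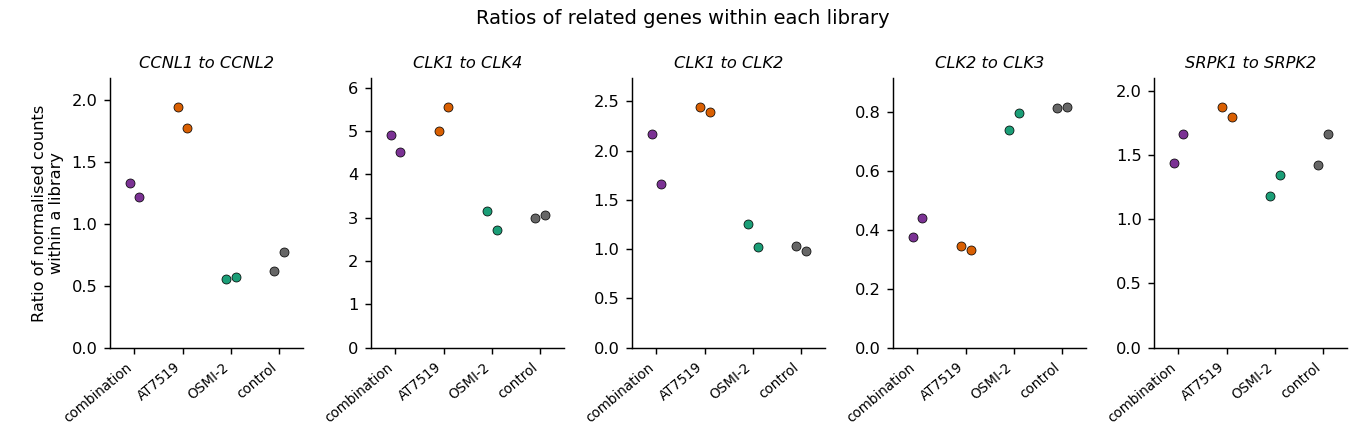
Ratio of normalised counts of 2 related genes within each library, a quantity that does not depend on library scaling; each point is 1 of 8 libraries and each axis starts at 0. For the first 4 pairs the libraries with AT7519 stand apart from those without it (CCNL1 to CCNL2 1.21 to 1.94 with AT7519), whereas SRPK1 to SRPK2 overlaps between groups.

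The log2 differences of the SRPK genes lay between -0.34 and 0.06 in every comparison of 2 groups. SRPK1 had 10901 and 12065 normalised counts in the combination, 14026 and 12439 with AT7519, 10734 and 11343 with OSMI-2, and 13001 and 14960 in control. Both groups given OSMI-2 lay below both groups not given it. SRPK1 fell in the combination against control (log2 change -0.28, SE 0.092, adjusted p = 0.0183), but this call was lost without control replicate 2 (-0.18, adjusted p = 0.201) or combination replicate 1 (-0.21, adjusted p = 0.144), and with equal upper quartiles (-0.15, adjusted p = 0.185). The change with OSMI-2 against control was -0.34 (adjusted p = 0.0638), and without AT7519 replicate 1 or 2, which changes only the pooled spread, it passed (adjusted p = 0.0408 and 0.041). SRPK1 against AT7519 alone gave -0.20 in the combination (adjusted p = 0.141).

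SRPK2 had 7594 and 7260 normalised counts in the combination, 7499 and 6921 with AT7519, 9119 and 8426 with OSMI-2, and 9151 and 9011 in control. The libraries with AT7519 lay below the others. SRPK2 fell by 0.33 on the log2 scale with AT7519 against control (SE 0.081, adjusted p = 0.00311, 1.26-fold lower) and by 0.24 between the combination and OSMI-2 alone (adjusted p = 0.0221, 1.18-fold lower). The second of these calls was lost without OSMI-2 replicate 1 (-0.18, adjusted p = 0.177) or combination replicate 2 (-0.21, adjusted p = 0.112), and with equal upper quartiles (-0.16, adjusted p = 0.0919). The fall in the combination against control (-0.29, adjusted p = 0.00759) was lost without combination replicate 2 (-0.26, adjusted p = 0.0527) and with equal upper quartiles (-0.15, adjusted p = 0.108). Exons of LHFPL5 overlap those of SRPK1 by 265 bases and exons of KMT2E those of SRPK2 by 98 bases, on the other strand in both cases. The ratio of SRPK1 to SRPK2 was 1.44 and 1.66 in the combination, 1.87 and 1.80 with AT7519, 1.18 and 1.35 with OSMI-2, and 1.42 and 1.66 in control.

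DYRK1A was the gene of this group that differed most between AT7519 alone and the combination. Its level was 6705 and 5956 normalised counts in the combination, 10129 and 9502 with AT7519, 6738 and 6255 with OSMI-2, and 6724 and 6540 in control. The 2 libraries with AT7519 alone stood above all 6 others, which overlapped. DYRK1A rose 1.48-fold with AT7519 against control (log2 change 0.56, SE 0.087, adjusted p = 7.99e-05), whereas the combination against OSMI-2 gave -0.04 (adjusted p = 0.73). It was 1.55-fold lower in the combination than with AT7519 alone (-0.63, SE 0.087, adjusted p = 0.000326). That call held under all 20 alternative settings, each library left out included, with changes of -0.72 to -0.50. Leaving out a control or OSMI-2 library changes only the pooled spread in that comparison. The rise with AT7519 alone depended on scale, being 0.22 with equal totals and -0.35 with equal mitochondrial mRNAs. An antisense transcript overlaps 360 bases of DYRK1A exons, which matters only if counting ignored the strand.

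Whether the AT7519 effect differed with and without OSMI-2 was tested as an interaction, the change in the combination against OSMI-2 minus the change with AT7519 against control. DYRK1A was the only 1 of the 9 genes called (log2 difference -0.60, SE 0.12, adjusted p = 0.0323), beside 1.04% of all tested genes, 0.0619% with a higher and 0.975% with a lower value. The size was steady, between -0.69 and -0.52 over 20 alternatives, but the call was not: it was kept in 9 of them. It was lost without control replicate 1 (adjusted p = 0.139), control replicate 2 (0.151), OSMI-2 replicate 1 (0.193), OSMI-2 replicate 2 (0.122), AT7519 replicate 1 (0.0946) or combination replicate 2 (0.151). It was kept without AT7519 replicate 2 (adjusted p = 0.0206) or combination replicate 1 (0.0152). For the other 8 genes the interaction lay between -0.37 (CLK1, adjusted p = 0.428) and 0.15 (CLK2, adjusted p = 0.862), and CCNL1 gave -0.31 (adjusted p = 0.357).

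**Figure D3:**
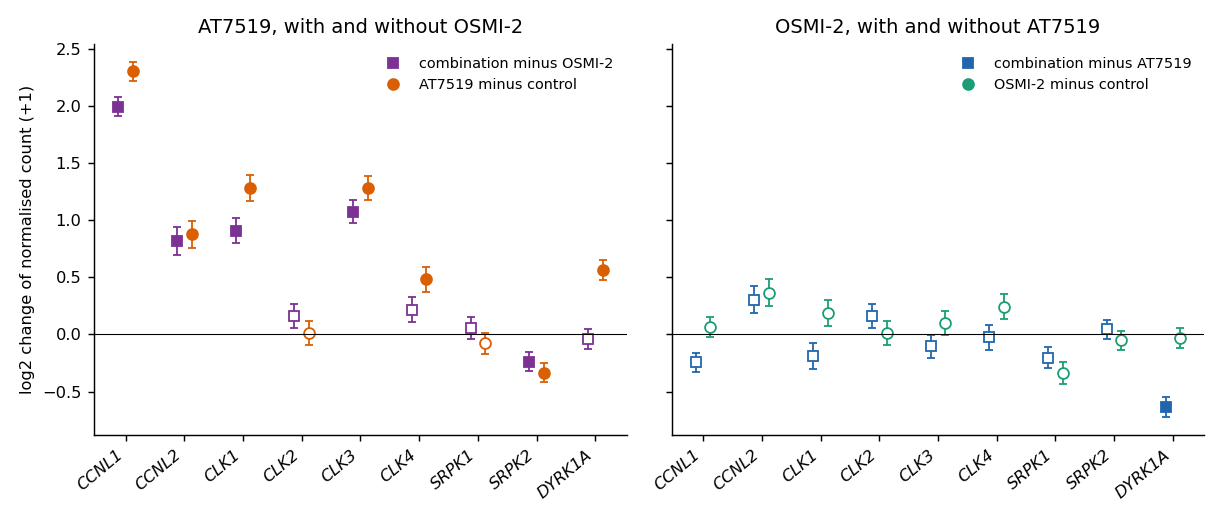
Log2 change of each of the 9 genes, with standard errors from the limma fit; filled symbols passed an adjusted p of 0.05 and open symbols did not. Left, the AT7519 effect with OSMI-2 present and absent: CCNL1 stands highest in both, at 1.99 and 2.30. Right, the OSMI-2 effect with AT7519 present and absent: DYRK1A at -0.63 in the combination against AT7519 is the only filled symbol.

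What OSMI-2 added to AT7519 was read from the combination against AT7519 alone. DYRK1A, described above, was the only 1 of the 9 genes called, beside 19.7% of all tested genes, 7.21% higher and 12.5% lower. Unadjusted p-values below 0.05 were reached by 4 of the 9, beside 6305 of the 19393 tested genes. Of the 9, edgeR called 1 and DESeq2 2. Over all tested genes edgeR called 1498 higher and 1991 lower, and DESeq2 1366 and 2854. CCNL1 gave -0.24 (adjusted p = 0.0574) and passed without AT7519 replicate 1 (-0.35, adjusted p = 0.0287). CCNL2 gave 0.30 (adjusted p = 0.0911) and passed without AT7519 replicate 2 (0.47, adjusted p = 0.0183), control replicate 1 (0.30, adjusted p = 0.0496) or control replicate 2 (adjusted p = 0.0494). Changes of the CLK genes ranged from -0.19 (CLK1, adjusted p = 0.279) to 0.16 (CLK2, adjusted p = 0.326).

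With OSMI-2 alone against control, limma called 0 of the 9 genes, beside 3.02% of all tested genes, 0.645% higher and 2.38% lower. Unadjusted p-values below 0.05 were reached by 3 of the 9, CCNL2, CLK4 and SRPK1, beside 3450 of the 19393 tested genes. Of the 9, edgeR called 0 and DESeq2 called 1, SRPK1. Over all tested genes edgeR called 147 higher and 520 lower, and DESeq2 395 and 1101. CCNL2 gave 0.36 (SE 0.12, adjusted p = 0.115), with both OSMI-2 libraries above both control libraries, and passed without control replicate 1 (0.56, adjusted p = 0.0398). CLK4 gave 0.24 (adjusted p = 0.269), CCNL1 0.06 (adjusted p = 0.769) and DYRK1A -0.03 (adjusted p = 0.907).

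The combination against control shares its control libraries with both single-agent comparisons, so its values are set beside them and not counted as separate evidence. In it 5 of the 9 genes rose and 2 fell, beside 53.9% of all tested genes called, 26.3% higher and 27.6% lower. CCNL2 stood at 1.18 (adjusted p = 1.61e-06), against 0.88 with AT7519 and 0.36 with OSMI-2. CLK1 stood at 1.10 and CLK3 at 1.17, against 1.28 for each with AT7519. With equal mitochondrial mRNAs these 3 rises were 0.20 (CCNL2), 0.12 (CLK1) and 0.20 (CLK3) and were not called. The genes that did not pass were CLK2 (0.17, adjusted p = 0.179) and DYRK1A (-0.07, adjusted p = 0.525).

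Because the deposited scale sets the median gene near 0, the AT7519 changes were also read on other scales. With AT7519 against control the median gene moved by -0.34 when libraries were set to equal totals, by -0.91 when set to equal mitochondrial mRNAs, and by 0.03 with equal upper quartiles. Of all tested genes, 5045 were called higher and 5278 lower on the deposited scale, 2036 higher and 8364 lower with equal totals, and 383 higher and 14656 lower with equal mitochondrial mRNAs. In the combination against OSMI-2 these counts were 5342 higher and 5288 lower, 2129 and 7862, and 421 and 13515 on the same 3 scales. CCNL1 was higher with AT7519 on all of these scales, at 1.96, 1.38 and 2.34. CLK1 (0.94, 0.37 and 1.32) and CLK3 (0.94, 0.36 and 1.32) also stayed higher. CCNL2, CLK4 and DYRK1A were higher on the deposited scale and at or below 0 with equal mitochondrial mRNAs, at -0.04, -0.43 and -0.35. SRPK2 was lower on every scale, between -0.30 and -1.25. Equal totals, equal mitochondrial mRNAs and equal upper quartiles each shift all genes of a comparison by nearly the same amount. A change relative to the median gene is therefore nearly fixed across these scales, and was 2.30 for CCNL1 on each. Quantile normalisation, which does not shift all genes equally, gave 1.96.

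**Figure D4:**
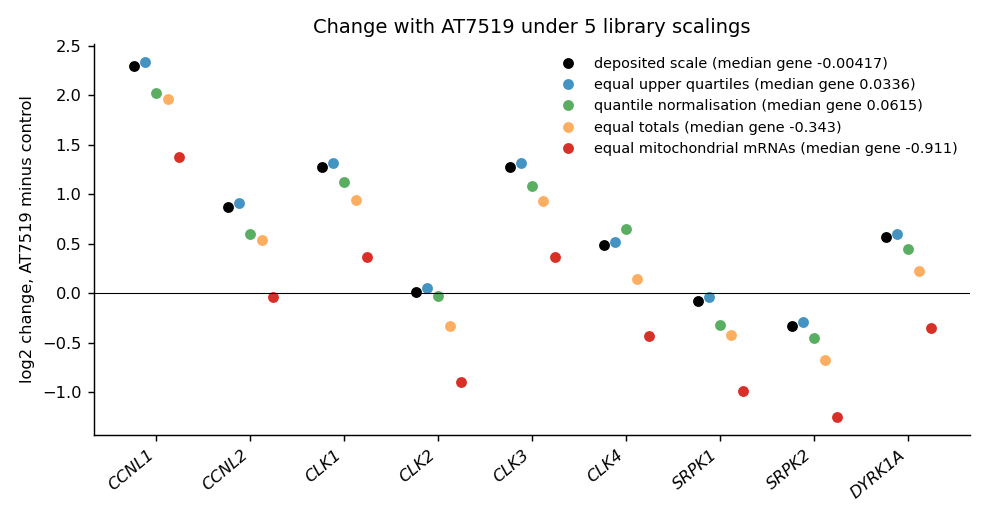
Log2 change with AT7519 against control for the 9 genes on 5 library scales; each point is the fitted change and the legend gives the change of the median gene on that scale. CCNL1, CLK1 and CLK3 lie above 0 on all 5 scales and SRPK2 below 0 on all 5, whereas CCNL2, CLK4 and DYRK1A lie below 0 with equal mitochondrial mRNAs.

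Levels of different genes were compared per kilobase of merged exons (GENCODE 29), which understates genes with long or many alternative exons such as DYRK1A and CLK3. With AT7519, CCNL1 came first at 4586 ± 457 normalised counts per kilobase, then CCNL2 at 3160 ± 511 and CLK1 at 2817 ± 341, whose spreads overlapped. SRPK1 (1977 ± 168) and CLK2 (1645 ± 222) followed, and their spreads overlapped. SRPK2 (1137 ± 64.5) and CLK3 (874 ± 144) came next. DYRK1A (369 ± 16.7) and CLK4 (348 ± 16.2) came last, also with overlapping spreads. In control the highest means were those of SRPK1 (2089 ± 207), CCNL2 (1727 ± 337), CLK2 (1623 ± 132) and SRPK2 (1432 ± 15.7). The spread of CCNL2 overlapped those of the other 3, so its place among them is not resolved. CLK1 (1158 ± 141), CCNL1 (929 ± 41.8) and CLK3 (358 ± 30.3) followed without overlap, and CLK4 (249.96 ± 33.5) and DYRK1A (249 ± 4.89) did not differ beyond their spread. CCNL1 thus stood sixth per kilobase in control libraries and first in libraries with AT7519 alone.

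CCNL2 and CLK2 lie on chromosome 1, CLK1 on 2, CCNL1 on 3, CLK4 on 5, SRPK1 on 6, SRPK2 on 7, CLK3 on 15 and DYRK1A on 21, and they differ in length. CLK1, CCNL2, CCNL1 and CLK2 span 11.7, 13.6, 14.3 and 15.6 kb in GENCODE 29, CLK4 28 kb and CLK3 46.9 kb, while SRPK1, DYRK1A and SRPK2 span 88.4, 160.8 and 288.6 kb. Over protein-coding tested genes, grouped by span after the values were seen, the median change with AT7519 against control was 0.18 for the 4517 genes under 20 kb, -0.009 for the 5032 of 20 to 80 kb and -0.19 for the 3194 over 80 kb. The call shares were 39.3% higher and 23.4% lower among the short genes, and 16.9% higher and 39.4% lower among the long ones. In the short class CCNL1, CCNL2 and CLK1 rose with AT7519 against control and CLK2 was not called. CLK3 and CLK4, which rose, lie in the middle class. In the long class SRPK2 fell, SRPK1 was not called and DYRK1A rose. How far span bears on the changes of the 9 genes was not tested.

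Genes with the most similar pattern were sought among the 10382 genes that averaged 500 or more normalised counts, as the smallest root mean square difference of centred log2 values over the 8 libraries. The 3 nearest to CCNL1 were EGLN2, an oxygen-sensing prolyl hydroxylase gene (difference 0.139), the small nucleolar RNA SNORD19 (0.155) and NDUFV2, a complex I subunit gene (0.168). With AT7519 against control these rose by 1.95, 2.44 and 2.46 on the log2 scale. Exons of EGLN2 overlap a read-through gene from RAB4B and exons of NDUFV2 another transcript on the same strand, and SNORD19 lies within its host GNL3 with no exon overlap; how reads there were assigned is not given in the sources used here. CLK1 lay nearest to CLK3 (0.0885), and CLK3 nearest to GAS5, a non-coding host of small nucleolar RNAs (0.0701), which rose by 1.34. DYRK1A lay nearest to the zinc finger gene RLF (0.0737). RLF changed by -0.66 between the combination and AT7519 alone, by 0.46 between AT7519 and control, and by -0.59 in the interaction. All nearest genes named here were chosen for their likeness over these same 8 libraries. Their changes therefore follow from the choice and are no separate evidence for the pattern. The nearest genes of the others were JAK1 for CCNL2 (0.0714), SMARCC2 for CLK2 (0.0546), RETSAT for CLK4 (0.0698), EML4 for SRPK1 (0.0423) and RCCD1 for SRPK2 (0.0215).

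Among 11 related kinase genes, with AT7519 against control 3 rose and 5 fell, and in the combination against OSMI-2 2 rose and 6 fell; their median changes were -0.19 and -0.29. Over all tested genes 26% were called higher and 27.2% lower with AT7519 against control, and 27.5% higher and 27.3% lower in the other comparison. The share of rises was thus near that of all genes and the share of falls above it, in a list of 11 genes that was not tested as a set. With equal mitochondrial mRNAs 0 were higher and 9 lower in each comparison, and CDK11B stood at -0.38 in both. On that scale 14656 of the 19393 tested genes were lower with AT7519 against control, and 13515 in the other comparison. CDK11A and CDK11B encode the kinase partner of cyclin L and are near-identical copies, so reads may be split between them. CDK11A exons also overlap another transcript by 2448 bases on the same strand. CDK11A had 662 and 613 normalised counts in the combination, 425 and 715 with AT7519, 375 and 375 with OSMI-2, and 303 and 258 in control. CDK11A rose by 0.98 with AT7519 against control (adjusted p = 0.00118) and by 0.76 between the combination and OSMI-2 alone (adjusted p = 0.0063), and CDK11B by 0.53 (adjusted p = 0.000985) and 0.48 (adjusted p = 0.00215). PRPF4B, a kinase of the tri-snRNP component of the spliceosome, changed the other way, by -0.25 (adjusted p = 0.0157) and -0.39 (adjusted p = 0.000761). Its first call was lost without control replicate 2 (adjusted p = 0.147) or AT7519 replicate 1 (0.0547).

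DYRK3, which dissolves speckles and other condensates in dividing cells, was near the floor with AT7519. It had 7.18 and 0 normalised counts in the combination, 3.80 and 3.05 with AT7519, 63.8 and 38.9 with OSMI-2, and 55.3 and 21.1 in control. It was called lower in all 3 comparisons of AT7519 libraries with libraries lacking it, with no fold given for such low counts, and without control replicate 1 the call against control with AT7519 was lost (adjusted p = 0.114). DYRK2 had 314 and 171 normalised counts in the combination and 639 and 425 with AT7519, a fall of 1.16 on the log2 scale between them (adjusted p = 0.00383). No related kinase was called with OSMI-2 alone (1 at an unadjusted p below 0.05, edgeR and DESeq2 0) or in the interaction (0 at an unadjusted p below 0.05, edgeR and DESeq2 0). Of all tested genes, 3.02% were called with OSMI-2 alone and 1.04% in the interaction. At such shares, 0 called in a list of 11 says little. Unadjusted p-values below 0.05 were reached by 3450 and 1962 of the 19393 tested genes. Against AT7519 the combination had 0 called higher and 2 lower, beside 7.21% and 12.5% of all tested genes, and 1 higher and 1 lower with equal totals, equal upper quartiles or quantile normalisation. Without a trend 0 were lower. Against control, all tested genes gave 425 higher and 14590 lower with equal mitochondrial mRNAs in the combination. They gave 2652 and 7369 with equal totals, and 6476 and 4485 with equal upper quartiles. Of the related kinases the combination had 2 higher and 5 lower against control, beside 26.3% and 27.6% of all tested genes. These counts were 0 and 9 with equal mitochondrial mRNAs, 1 and 7 with equal totals, and 3 and 3 with equal upper quartiles, and 3 were lower without control replicate 2 or combination replicate 1.

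The SR protein genes, whose products these kinases phosphorylate, were counted over 14 listed genes, of which 13 were tested because SRSF12 lay below the filter. With AT7519 against control 10 rose and 0 fell, with a median change of 0.40, and in the combination against OSMI-2 9 rose and 1 fell, with a median of 0.35. The shares over all tested genes were 26% higher and 27.2% lower with AT7519 against control, and 27.5% higher and 27.3% lower in the combination against OSMI-2. With libraries set to equal totals, 2 were called higher in each of these comparisons, beside 2036 and 2129 of the 19393 tested genes. With equal mitochondrial mRNAs 0 were called higher in each, beside 383 and 421, and 10 lower in each, beside 14656 and 13515. Quantile normalisation left 3 and 5 higher, beside 5294 and 5843. TRA2B, a splicing activator, rose by 0.83 with AT7519 against control (adjusted p = 2.86e-06) and by 0.95 when the combination was set against OSMI-2 (adjusted p = 6.77e-07). With OSMI-2 against control 0 rose and 4 fell, beside 0.645% and 2.38% of all tested genes, led by SRSF3 (-0.40, adjusted p = 0.0362), and the count ranged from 0 to 5 when 1 library was left out and from 0 to 7 under the other settings. The SRSF3 call was lost without control replicate 1 (adjusted p = 0.0844), control replicate 2 (0.39), OSMI-2 replicate 1 (0.094) or OSMI-2 replicate 2 (0.312). Between the combination and AT7519 0 rose and 4 fell, beside 7.21% and 12.5% of all tested genes, again led by SRSF3 (-0.42, adjusted p = 0.00769), a call lost without combination replicate 2 (-0.25, adjusted p = 0.11), when 2 were called; without a trend 0 were called. In the combination against control 6 rose, led by SRSF9 (0.59, adjusted p = 8.01e-06), and 1 fell, SRSF5 (-0.31, adjusted p = 0.0108), beside 26.3% and 27.6% of all tested genes. These counts were 2 higher and 5 lower with equal totals, 0 and 12 with equal mitochondrial mRNAs, 3 and 5 after quantile normalisation, and 8 and 0 with equal upper quartiles. Over all tested genes they were 2652 and 7369, 425 and 14590, 5707 and 4814, and 6476 and 4485 on the same scales, in that order. The SRSF5 call was lost without control replicate 1 (-0.20, adjusted p = 0.152) or combination replicate 2 (-0.21, adjusted p = 0.135). SRSF5 was also the 1 gene that fell in the combination against OSMI-2 (-0.41, adjusted p = 0.00175). No SR protein gene passed the interaction (0 at an unadjusted p below 0.05, edgeR and DESeq2 0). Of all tested genes 1.04% were called there, so 0 called in a list of this size says little. Unadjusted p-values below 0.05 were reached by 1962 of the 19393 tested genes.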

How the data were processed

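For each gene the authors deposited a signal, read counts divided by 1 factor per library, from strand-specific TruSeq libraries of total RNA per the labels' protocols. The submitters' processing notes name hg19, GRCh37, DESeq2, HTSeq and STAR. Versions, roles, annotation and counting strand: not given in the sources used here. Dividing each deposited column by its smallest step gave whole counts for 100% of values (tolerance 0.01), which edgeR 4.0.16 and DESeq2 1.42.0 used as alternatives. After 28 lines without a gene name were dropped, genes averaging 10 or more normalised counts were tested (19393 genes, 99.971% of counts). The model, limma 3.58.1 in R 4.3.3, took log2(value + 1), the 4 groups and a trend of variance with mean, 2-sided, with Benjamini-Hochberg adjustment over all tested genes, and tested on simulated data. Replicates differed beyond counting error (chi-square per degree of freedom 20.5 to 32.3), so none repeats another. The scripts compared pseudocounts, filters, scales, tests and libraries left out. Named genes are the 9, the genes nearest in pattern, CDK11A, CDK11B, PRPF4B, and in each comparison the called list member with the largest rise and fall. Members, lists and rules were chosen with earlier results of these data known. GENCODE 29 gave spans and overlaps by symbol, and RefSeq (GRCh38.p14) the start windows; neither is the build of the counts. Counting error alone sets the floor of 3 reads, 1.76 to 5.47 normalised counts. A luminal marker gene that was also checked is not reported here.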

Additional observations from a re-analysis of the deposited data

Results flagged for a closer look

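The AT7519 effect on DYRK1A, the splicing-factor kinase gene of chromosome 21, differed with and without OSMI-2 by the interaction test of the limma fit, by -0.604 on the log2 scale (adjusted p = 0.0323). The call held in 9 of 20 alternatives and was lost without any 1 of 6 of the 8 libraries, with differences of -0.69 to -0.52 throughout. With OSMI-2 present the AT7519 change was -0.04, and without it 0.56. Both combination libraries (6705 and 5956 normalised counts) stood below both libraries with AT7519 alone (10129 and 9502). Groups of 2 libraries are too small to look for single libraries that stand apart.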

How the results depend on the processing

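Of 1080 changes of the 9 genes recomputed under alternatives, 1015 kept their direction and side of the threshold, 24 newly passed, 29 no longer passed and 12 changed direction in a value called in at least 1 fit; a change of sign between values called in neither is not counted. The causes were not tested, beyond the shift of the median gene that each scale brings. Not every alternative could move every value, since leaving out a library outside a comparison changes only the pooled spread. Scaled to equal mitochondrial mRNAs, AT7519 against control gave -0.0397 for CCNL2, -0.9 for CLK2, -0.433 for CLK4 and -0.351 for DYRK1A, and among other genes -0.382 for CDK11B, -0.197 for JAK1, -0.485 for RETSAT, -0.46 for RLF, -0.882 for SMARCC2 and -0.0864 for TRA2B. On that scale the combination against control gave -0.805 for CLK2, -0.52 for CLK4 and -0.388 for SRSF9, and the combination against OSMI-2 gave -0.0374 for CCNL2, -0.692 for CLK2, -0.636 for CLK4, -0.798 for SRPK1, -0.0891 for CDK11A and -0.376 for CDK11B. Scaled to equal totals, AT7519 against control gave -0.328 for CLK2 and -0.309 for SMARCC2, and the combination against OSMI-2 -0.279 for SRPK1.

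Scales move the calls of all genes. Under equal mitochondrial mRNAs 14656 of the 19393 tested genes were lower with AT7519 against control. In the combination 14590 were lower against control and 13515 against OSMI-2. Under equal totals these were 8364, 7369 and 7862. Counts of the 9 genes called moved as follows. With OSMI-2 against control, 1 was called lower under equal mitochondrial mRNAs, DESeq2 or the replicate block. With AT7519 against control, 3 were higher and 5 lower under equal mitochondrial mRNAs, 3 lower under equal totals and 2 lower after quantile normalisation. In the combination against control, 1 was higher and 5 lower under equal mitochondrial mRNAs, 0 lower under equal upper quartiles and 1 lower without a trend. Against AT7519, 1 was higher in the combination under equal totals or equal upper quartiles, and 2 lower with a filter at 50 or DESeq2. Against OSMI-2, 1 was higher and 5 lower in the combination under equal mitochondrial mRNAs, 3 lower under equal totals, and 0 lower under equal upper quartiles or without a trend. The interaction called 0 lower without a filter, under equal mitochondrial mRNAs, equal upper quartiles or quantile normalisation, and without a trend. With each library left out, 0 to 1 were higher and 0 to 1 lower with OSMI-2, 6 higher and 1 lower with AT7519, 4 to 5 higher and 1 to 2 lower in the combination against control, 0 to 1 higher and 1 to 2 lower against AT7519, 4 higher and 0 to 1 lower against OSMI-2, and 0 higher and 0 to 1 lower in the interaction.

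Over all genes, the 586 calls with OSMI-2 became 2 to 892 with a library left out, 101 without a filter, 262 under equal totals, 1271 under equal mitochondrial mRNAs, 285 under equal upper quartiles, 0 without a trend and 1496 with DESeq2. The 3815 calls of the combination against AT7519 became 865 without a trend and 1683 to 3860 with a library left out. The split of all-gene calls into higher and lower also moved with scale. With OSMI-2 against control it was 125 and 461 on the deposited scale, 144 and 118 with equal totals, 98 and 1173 with equal mitochondrial mRNAs, 131 and 154 with equal upper quartiles; quantile normalisation gave 241 and 279. For the combination against AT7519 it was 1399 and 2416, against 2023 and 1534 with equal totals, 2191 and 1440 with equal upper quartiles; quantile normalisation gave 1374 and 1455. Against control the combination had 5097 and 5351, against 2652 and 7369 with equal totals, 425 and 14590 with equal mitochondrial mRNAs and 6476 and 4485 with equal upper quartiles. In the interaction it was 12 and 189, against 53 and 230 with equal mitochondrial mRNAs. The 201 interaction calls became 2 to 490 with a library left out, 33 without a filter, 118 under equal upper quartiles, 131 after quantile normalisation, 0 without a trend, 558 with DESeq2 and 404 with the replicate block. Same-numbered libraries correlated by 0.0207 to 0.123 after group means were removed, so over all tested genes little of the difference between replicates was shared by number. A block for the number still raised calls. They became 213 higher and 652 lower with OSMI-2, and 1656 and 2639 in the combination against AT7519. Whether the numbers pair the samples is not decided by this, because paired samples can also differ little by number. With the replicate block 1 of 54 calls of the 9 genes changed, SRPK1 with OSMI-2. With a library left out, the lone library of its group is assumed to vary like the other groups. Each group had 2 libraries, and 1424 or more reads lay behind each value of the 9 genes.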
